A study of Mus musculus with 13 samples.

Results

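The genes described here are 5 sialyltransferases, St8sia6, St8sia4, St8sia1, St3gal6 and St6gal1, and 5 Siglecs, Siglech, Cd33, Siglece, Siglecf and Siglec1, found by symbol among the 52636 genes measured in each mouse. All 10 passed the expression filter, as did 17086 genes in all. They were chosen with the genotype comparison of these same mice already known, and St8sia6 was singled out on its measured fold change. The genotype values of the 10 genes are therefore given as a description, without a p-value for any of them.

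RNA-Seq was performed on brain-resident myeloid cells sorted by FACS (CD11b+ CD45+ Ly6g- Ccr2-) from the cortex and hippocampus of 7 PS2APP;Trem2wt mice (5 females and 2 males, labelled PS2APP) and 6 PS2APP;Trem2ko mice (5 females and 1 male, labelled PS2APP;Trem2KO), all 14 to 15 months old. Every mouse in both groups carried the PS2APP transgenes, which encode familial Alzheimer's disease mutant forms of human presenilin 2 and APP and lead to β-amyloid plaques, and all parents were homozygous for them, so no mouse without plaques is compared here. The PS2APP;Trem2ko mice lacked Trem2 in every cell through the null allele Trem2tm1(KOMP)Vlcg, which was made on C57BL/6N and crossed into PS2APP mice on C57BL/6J. Each mouse was 1 replicate, and the sorted cells were, by the study's methods, almost entirely microglia with a small part of perivascular macrophages.

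Sialic acids are the sugars that most often end the glycan chains on the cell surface. Sialyltransferases in the Golgi attach them, and each family makes its own kind of bond: the St3gal and St6gal enzymes cap galactose, the St6galnac enzymes act on N-acetylgalactosamine, and the St8sia enzymes extend one sialic acid with another. Siglecs are cell surface receptors of immune cells that bind sialic acid, and most of them carry inhibitory motifs that recruit the phosphatases SHP-1 (Ptpn6) and SHP-2 (Ptpn11), while Siglech lacks such motifs and signals through the adaptor DAP12 (Tyrobp), the adaptor that Trem2 also uses. In the brain several of these receptors are found on microglia, while Mag is a Siglec of myelinating cells. CD33 is a risk gene for Alzheimer's disease in humans.

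The promoters of 4 of the genes are shown because St8sia6 and St8sia4 were the genes lower in every PS2APP;Trem2ko mouse, whereas Siglech and Siglece are abundant Siglecs whose levels overlapped between the genotypes. Cd33, more abundant than Siglece, overlapped as well, and its window is not shown. Each window covers the 250 bases before and the 50 bases after a RefSeq gene start on GRCm38.p6, and is written 5′ to 3′ on the strand of the gene. Capitals mark the letters GAGGAA, a core bound by the myeloid factor PU.1 and other ETS factors, on either strand (TTCCTC on the other strand), and the E-box letters CACGTG. The windows lie at chr2:13793471-13793770 on the minus strand for St8sia6, chr1:95667545-95667844 on the minus strand for St8sia4, chr7:55767934-55768233 on the plus strand for Siglech and chr7:43660112-43660411 on the minus strand for Siglece.
St8sia6: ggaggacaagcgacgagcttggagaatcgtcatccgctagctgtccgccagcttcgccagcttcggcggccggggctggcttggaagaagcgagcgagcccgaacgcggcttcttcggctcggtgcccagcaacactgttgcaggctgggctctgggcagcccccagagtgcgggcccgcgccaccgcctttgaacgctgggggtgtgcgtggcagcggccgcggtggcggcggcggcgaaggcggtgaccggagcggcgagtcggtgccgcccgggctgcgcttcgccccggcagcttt
St8sia4: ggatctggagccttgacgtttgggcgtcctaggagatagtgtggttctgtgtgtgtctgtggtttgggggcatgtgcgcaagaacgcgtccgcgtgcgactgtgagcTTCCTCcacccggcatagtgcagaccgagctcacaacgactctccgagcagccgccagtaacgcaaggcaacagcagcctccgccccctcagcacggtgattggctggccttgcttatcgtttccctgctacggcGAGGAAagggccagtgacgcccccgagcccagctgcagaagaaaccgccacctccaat
Siglech: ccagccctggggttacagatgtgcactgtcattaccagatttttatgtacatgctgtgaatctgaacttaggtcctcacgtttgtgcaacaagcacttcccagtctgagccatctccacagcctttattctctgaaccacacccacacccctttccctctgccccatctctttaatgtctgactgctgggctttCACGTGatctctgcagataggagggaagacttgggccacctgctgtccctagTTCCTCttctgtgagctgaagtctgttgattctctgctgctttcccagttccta
Siglece: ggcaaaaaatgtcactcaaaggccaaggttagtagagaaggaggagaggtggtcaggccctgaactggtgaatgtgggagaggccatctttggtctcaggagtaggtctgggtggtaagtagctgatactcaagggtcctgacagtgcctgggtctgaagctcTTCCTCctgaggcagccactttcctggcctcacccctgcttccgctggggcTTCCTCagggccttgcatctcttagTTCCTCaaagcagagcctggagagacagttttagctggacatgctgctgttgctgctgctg

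The St8sia6 window was 72% G and C with 39 CpG dinucleotides, and it held none of the motifs searched. The St8sia4 window was 61.3% G and C with 22 CpG and held GAGGAA at 2 places. Both are richer in CpG than the median RefSeq window, which had 52.7% G and C and 7 CpG over 32851 windows of the same length. This also holds for sialyltransferases whose levels overlapped between the genotypes. The St8sia1 window had 64.7% G and C and 19 CpG. For St3gal6, a window had 64.7% and 20 CpG, and another 38.7% and 3 CpG. The St6gal1 windows had between 6 and 10 CpG. The Siglech window had 50% G and C, 2 CpG, 1 GAGGAA and 1 CACGTG, and the Siglece window had 55.0% G and C, 1 CpG and 3 GAGGAA. RefSeq windows were matched for 9 of the 10 genes, 12 windows in all. The letters GAGGAA were present in the windows of all 4 Siglecs that have one (Siglech, Cd33, Siglece and Siglecf) and, among the sialyltransferases, only in that of St8sia4, whereas 28.3% of all windows held them. In the windows of Cd33 and Siglecf, which are not shown, they were at 1 place each. CACGTG was found in 7.15% of all windows, and among the windows of these genes only in that of Siglech. Of the other motifs searched, TGANTCA (7.81% of all windows) matched 1 window of St6gal1 and AAANNGAAA (10.6%) matched none. A match is a stretch of letters and does not show that a factor binds there.

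Total counts on genes ranged from 26120961 to 114857155 in PS2APP;Trem2wt mice and from 41567025 to 120569609 in PS2APP;Trem2ko mice. Trem2 was measured at 818 to 1244 nRPKM, a size-factor-adjusted RPKM, in PS2APP;Trem2wt mice and at 0.393 to 2.29 nRPKM in PS2APP;Trem2ko mice, so each label matched its mouse. The summed level of 7 microglia markers was 12995 to 15930 nRPKM in PS2APP;Trem2wt and 13282 to 15219 nRPKM in PS2APP;Trem2ko mice, against sums of 11.6 to 35.8 and 20.1 to 54.7 nRPKM for 8 markers of border macrophages. The neutrophil markers, from a cell type that the Ly6g gate removes, summed to 13.1 to 245 nRPKM in PS2APP;Trem2wt and 0.143 to 40.3 nRPKM in PS2APP;Trem2ko mice.

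Among the 10 genes, the ranking by mean level on the nRPKM scale, which divides by gene length, was the same in both genotypes: Siglech, Cd33, St3gal6, Siglece, St6gal1, Siglecf, St8sia6, St8sia4, Siglec1 and St8sia1. Siglech stood apart, at a mean 6.45 times that of Cd33 in PS2APP;Trem2wt mice and 5.65 times in PS2APP;Trem2ko mice. It made up 71.8 to 77.5% of the summed nRPKM of 9 Siglecs in PS2APP;Trem2wt mice and 71.0 to 79.9% in PS2APP;Trem2ko mice. In PS2APP;Trem2wt mice, the ranges of Cd33 and St3gal6, St3gal6 and Siglece, St6gal1 and Siglecf, and Siglecf and St8sia6 overlapped between mice. Within single PS2APP;Trem2wt mice, Cd33 was above St3gal6 and Siglecf above St8sia6 in 7 of 7, St3gal6 above Siglece in 6 of 7, and St6gal1 above Siglecf in 4 of 7. In PS2APP;Trem2ko mice, the neighbours with overlapping ranges were St6gal1 and Siglecf, with St6gal1 the higher in 5 of 6 mice, and St8sia4 and Siglec1, and Siglec1 and St8sia1, with the first of each pair the higher in 6 of 6. The range of St8sia6 reached into that of Siglecf in PS2APP;Trem2wt mice, but in PS2APP;Trem2ko mice its mean was 3.81 times lower than that of Siglecf, with no overlap.

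**Figure D1:**
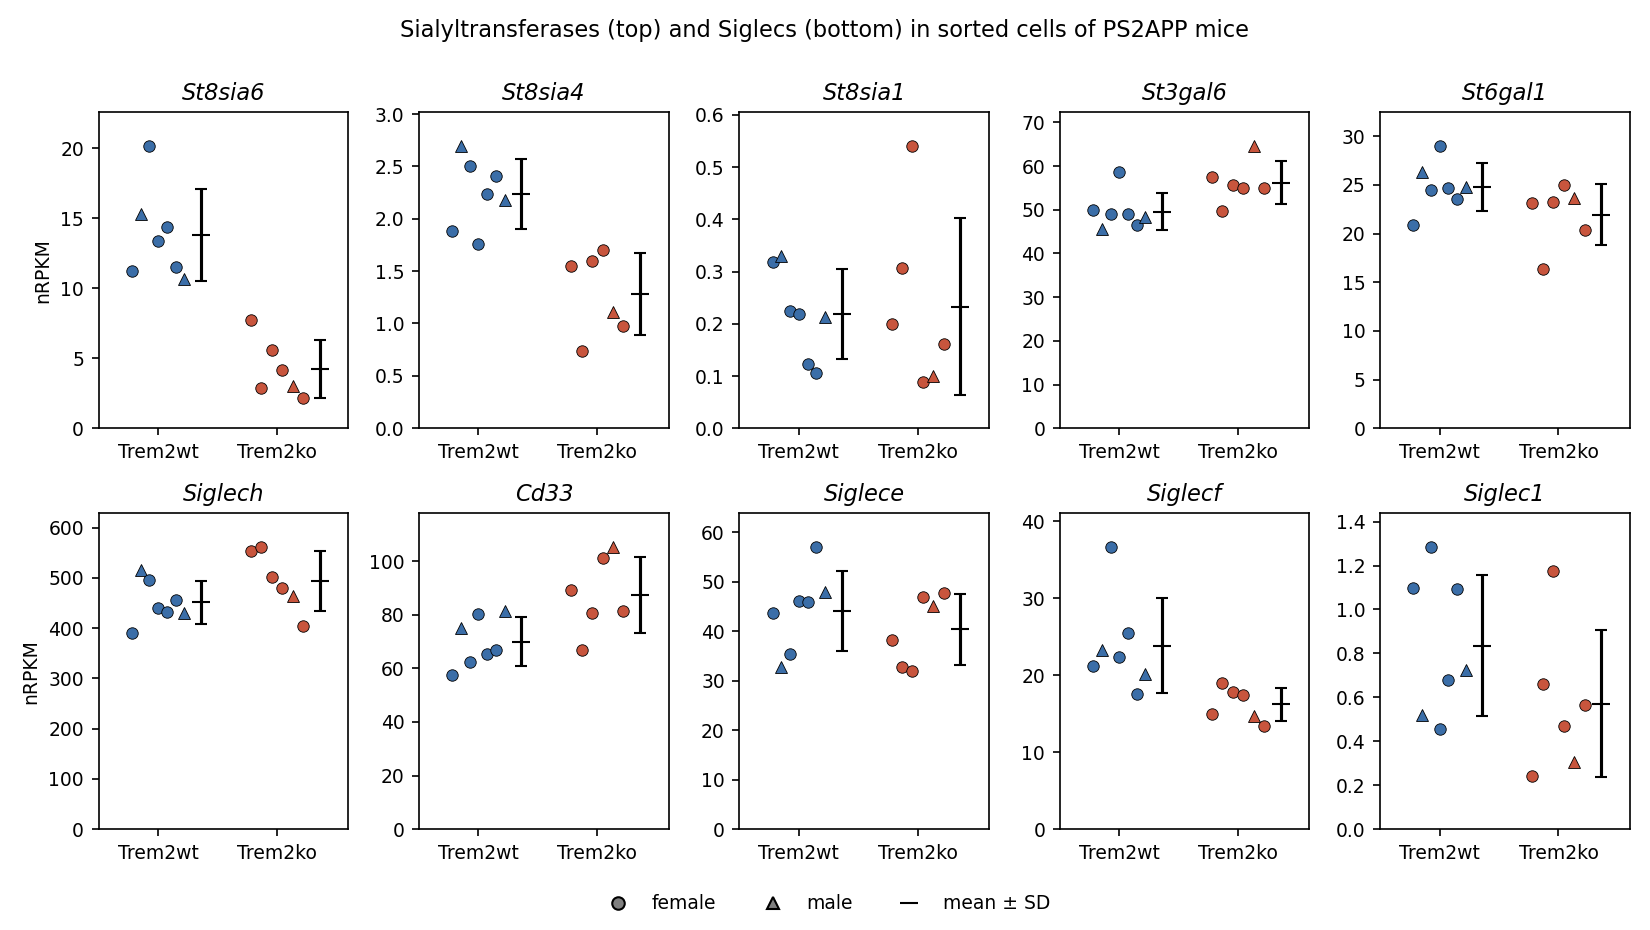
The nRPKM of the 5 sialyltransferases (top row) and 5 Siglecs (bottom row) in each of 7 PS2APP;Trem2wt (blue) and 6 PS2APP;Trem2ko (red) mice, plotted in the order of mouse number, with the mean ± SD beside each group and a separate linear axis from 0 for each gene. Circles are females and triangles males. The genotypes do not overlap for St8sia6 and St8sia4, and they overlap for the other 8 genes.

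St8sia6 and St8sia4 were the genes past the threshold in the genotype comparison. In edgeR's quasi-likelihood test over all genes, 2 of the 10 genes were lower in PS2APP;Trem2ko mice at an adjusted p no greater than 0.05, against 1.53% of all genes tested. None was higher, against 0.503% of all genes. At an unadjusted p no greater than 0.05 the same test gave 3 lower and 2 higher, against 7.56% and 7.29% of all genes. DESeq2 called 3 lower and 0 higher after adjustment, against 3.08% and 1.90% of all genes, and voom+limma called 2 lower and 0 higher, against 1.90% and 0.650%. With at least a 2-fold change as well, 1 gene, St8sia6, was lower, against 0.691% of all genes. The median log2 fold change of the 10 genes was -0.15, with 6 negative and 4 positive, and that of all genes tested was 0.00. Because the genes were chosen on this comparison, nothing is read from these shares. In RNA from a sorted population, fewer cells that express a gene and less of its RNA per cell cannot be told apart.

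St8sia6 (ENSMUSG00000003418, chromosome 2, 13651021 to 13794064 on GRCm38) encodes an enzyme that adds a second sialic acid, mainly on O-linked glycans, and so makes disialic acid structures that some Siglecs bind. Its nRPKM was between 10.7 and 20.2 in PS2APP;Trem2wt mice, with a median of 13.3, and between 2.13 and 7.70 in PS2APP;Trem2ko mice, with a median of 3.59. The lowest PS2APP;Trem2wt mouse was thus 1.38 times above the highest PS2APP;Trem2ko mouse, and no value of one genotype fell within the range of the other. The mean was 13.8 ± 3.29 (SD, n = 7) against 4.25 ± 2.07 (SD, n = 6) nRPKM, and the log2 fold change was -1.70 (SE 0.26), which is 3.26-fold lower. Mice of the same genotype also differed, by up to 1.89 times in PS2APP;Trem2wt and 3.62 times in PS2APP;Trem2ko. These values rest on 1035 to 15842 reads per mouse. Among the 262 genes called lower, St8sia6 ranked 68 by the size of its log2 fold change.

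St8sia4 (ENSMUSG00000040710, chromosome 1, 95587682 to 95667571) encodes a polysialyltransferase, which builds long sialic acid chains on a few carrier proteins. Its nRPKM was between 1.76 and 2.70 in PS2APP;Trem2wt mice, with a median of 2.24, and between 0.739 and 1.70 in PS2APP;Trem2ko mice, with a median of 1.33. The groups did not overlap, but they nearly met, since the lowest PS2APP;Trem2wt mouse was 1.04 times above the highest PS2APP;Trem2ko mouse. The means were 2.24 ± 0.34 (SD, n = 7) and 1.28 ± 0.39 (SD, n = 6) nRPKM, and on the log2 scale St8sia4 differed by -0.81 (SE 0.17). St8sia4 no longer passed the threshold without PS2APP;Trem2ko mouse 5 (log2 fold change -0.77) or mouse 6 (-0.74), or in females only (-0.72). Of all genes tested, 1.22% had normalized counts in CPM that were lower in every PS2APP;Trem2ko mouse than in any PS2APP;Trem2wt mouse, as these 2 genes had, and 0.421% had the reverse, which none of the 10 genes had.

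St8sia1 encodes GD3 synthase, which makes gangliosides with 2 linked sialic acids, and it was the lowest of the 10 genes. Its nRPKM was between 0.106 and 0.329 in PS2APP;Trem2wt mice (median 0.218) and between 0.0893 and 0.541 in PS2APP;Trem2ko mice (median 0.181), from 41 to 321 reads per mouse. The ranges overlapped throughout, and the log2 fold change of 0.08 (SE 0.40) turned negative when PS2APP;Trem2ko mouse 2 or 3 or PS2APP;Trem2wt mouse 5 or 6 was left out, and with voom+limma or limma on log2(nRPKM + 0.1). The other St8sia genes were still lower, with means of at most 0.125 nRPKM in either genotype.

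St3gal6 and St6gal1, the more abundant sialyltransferases among the 10 genes, cap galactose with sialic acid in the St3gal and St6gal linkage. St3gal6 was measured at 45.6 to 58.6 nRPKM in PS2APP;Trem2wt mice (median 49.0) and at 49.7 to 64.6 nRPKM in PS2APP;Trem2ko mice (median 55.3). Its mean was 49.6 ± 4.28 (SD, n = 7) against 56.2 ± 4.85 (SD, n = 6), which is 0.18 higher on the log2 scale (SE 0.07), and 1 PS2APP;Trem2ko mouse exceeded all PS2APP;Trem2wt mice. The overlap came mainly from PS2APP;Trem2wt mouse 4, at 58.6 nRPKM, since in CPM the other 6 mice of its group lay below every PS2APP;Trem2ko mouse. In nRPKM, PS2APP;Trem2wt mouse 1 (49.97) also lay just above PS2APP;Trem2ko mouse 2 (49.70). St3gal6 overlaps the gene Dcbld2 on the opposite strand over 26.0% of its exon bases, and 24.1% of its 50-base transcript words occur in Dcbld2, whose mean was 2.14 and 2.09 nRPKM in the genotypes, so part of the St3gal6 count is uncertain. St6gal1 was at 20.9 to 29.0 nRPKM in PS2APP;Trem2wt mice (median 24.6) and at 16.3 to 24.9 nRPKM in PS2APP;Trem2ko mice (median 23.2). Here 2 PS2APP;Trem2ko mice lay under all PS2APP;Trem2wt mice, and the log2 fold change was -0.18 (SE 0.10). Neither gene passed the threshold in any alternative.

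In the sorted cells, St8sia6 was a minor part of a sialyltransferase pool dominated by other genes. The 20 sialyltransferase genes together summed to 253 to 293 nRPKM in PS2APP;Trem2wt mice and 256 to 299 nRPKM in PS2APP;Trem2ko mice, ranges that largely coincide. St8sia6 gave 3.72 to 7.17% of that sum in PS2APP;Trem2wt and 0.780 to 2.91% in PS2APP;Trem2ko mice. It ranked 6 in every PS2APP;Trem2wt mouse and 6 to 9 in PS2APP;Trem2ko mice. Within the St8sia family it was the main gene, with 79.5 to 87.5% of the family's nRPKM in PS2APP;Trem2wt and 55.8 to 81.4% in PS2APP;Trem2ko mice. The whole St8sia family, which follows St8sia6, summed to 16.4 ± 3.47 nRPKM (SD, n = 7) when Trem2 was present and 5.99 ± 2.31 nRPKM (SD, n = 6) when it was not. The St3gal family summed to 154 to 180 nRPKM and 177 to 201 nRPKM in the same order, the St6galnac family to 53.6 to 70.9 and 54.5 to 70.2, and the St6gal family to 20.9 to 29.0 and 16.3 to 25.0. In summed nRPKM those 3 families overlapped between the genotypes, the St3gal family only narrowly. As a share of the sum of the 20 genes, the St3gal family did not overlap. It gave 58.4 to 64.6% in PS2APP;Trem2wt and 65.8 to 70.7% in PS2APP;Trem2ko mice. The shares of the St6galnac and St6gal families overlapped.

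**Figure D2:**
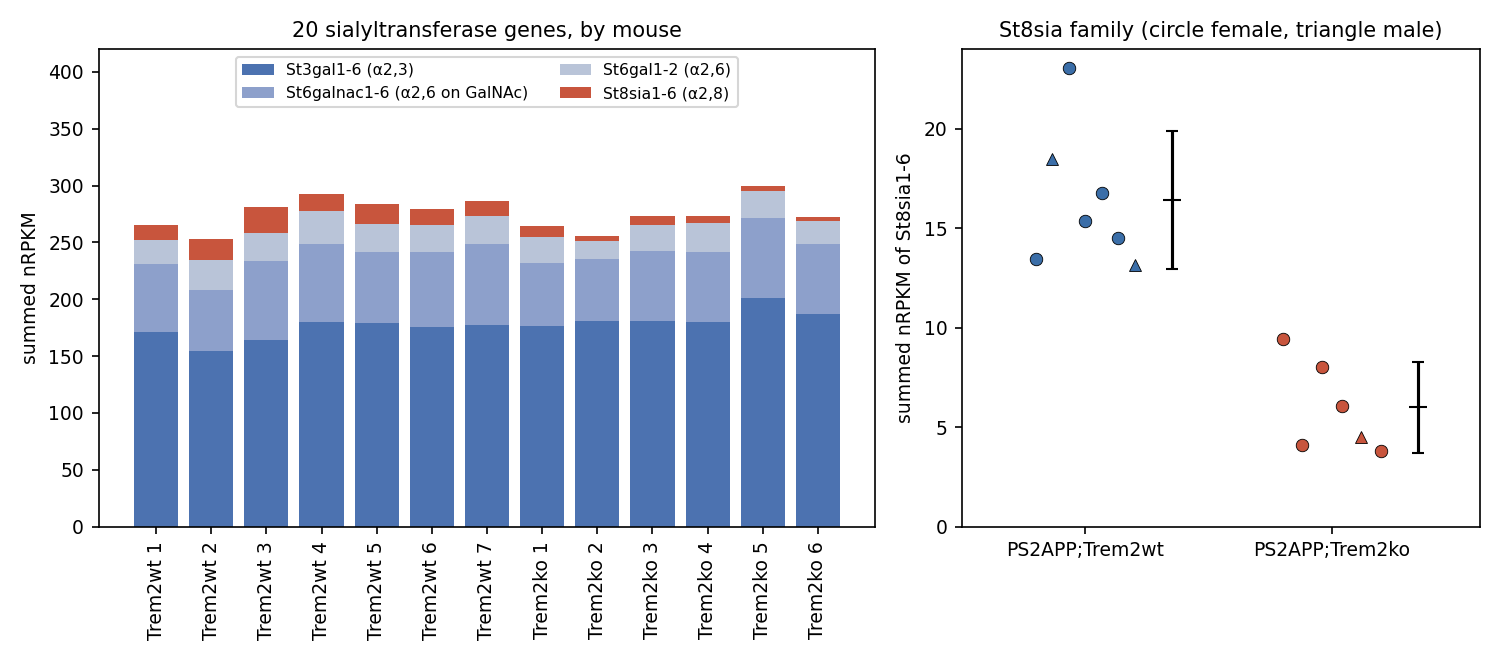
Left, summed nRPKM of 20 sialyltransferase genes in each mouse, stacked by family from 0. Right, summed nRPKM of the 6 St8sia genes, with each point a mouse (circles females, triangles males) and bars showing the mean ± SD. The stacks are of similar height in both genotypes, while the St8sia layer is between 13.1 and 23.0 nRPKM in PS2APP;Trem2wt and between 3.81 and 9.46 nRPKM in PS2APP;Trem2ko mice.

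None of the 5 Siglecs passed the threshold. Siglech, a marker of microglia and of plasmacytoid dendritic cells, was measured at 391 to 515 nRPKM in PS2APP;Trem2wt mice (median 439) and at 403 to 561 nRPKM in PS2APP;Trem2ko mice (median 490). Its groups overlapped, with 2 PS2APP;Trem2ko mice higher than all PS2APP;Trem2wt mice and a log2 fold change of 0.13 (SE 0.08). Of the plasmacytoid dendritic cell markers, Klk1 was at 0 in every mouse and Ccr9 was at most 0.182 nRPKM, and the sum of the list, 17.2 to 47.9 nRPKM in PS2APP;Trem2wt and 6.63 to 32.2 nRPKM in PS2APP;Trem2ko mice, came mostly from Cox6a2.

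Cd33 carries inhibitory motifs and showed the largest positive log2 fold change of the 10 genes, 0.32 (SE 0.11). It was measured at 57.6 to 81.3 nRPKM in PS2APP;Trem2wt mice (median 67.0) and at 66.7 to 105 nRPKM in PS2APP;Trem2ko mice (median 85.4). The ranges overlapped, and 4 of the 6 PS2APP;Trem2ko mice were higher in nRPKM than all PS2APP;Trem2wt mice, but 3 in CPM. The mean was 69.9 ± 9.14 (SD, n = 7) against 87.4 ± 14.3 (SD, n = 6) nRPKM. Cd33 stayed outside the threshold in each of the 9 alternatives and the 13 fits that left out a mouse.

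Siglecf, best known as a marker of eosinophils, came closest to the threshold among the Siglecs. It was at 17.6 to 36.7 nRPKM in PS2APP;Trem2wt mice (median 22.3) and at 13.4 to 19.0 nRPKM in PS2APP;Trem2ko mice (median 16.2). The ranges overlapped at the low end of PS2APP;Trem2wt, with 4 PS2APP;Trem2ko mice under all PS2APP;Trem2wt mice. The mean was 23.8 ± 6.19 (SD, n = 7) against 16.2 ± 2.16 (SD, n = 6) nRPKM. The log2 fold change of -0.56 (SE 0.14) did not pass the threshold in edgeR with all mice. It passed in 1 of the 9 alternatives, DESeq2 (-0.56), and in 1 of the 13 fits that left out a mouse, that without PS2APP;Trem2wt mouse 6 (-0.62). Over those 13 fits it was between -0.62 and -0.42. PS2APP;Trem2wt mouse 3 gave the highest value, 36.7 nRPKM, and the next highest of its group was 25.5 nRPKM. The eosinophil markers Epx, Prg2, Ccr3 and Il5ra summed to 0.120 to 0.466 nRPKM in PS2APP;Trem2wt and 0.0956 to 0.543 nRPKM in PS2APP;Trem2ko mice, and Epx was at 0 in every PS2APP;Trem2wt mouse.

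Siglece, an inhibitory receptor of microglia and other myeloid cells, was at 32.7 to 57.1 nRPKM in PS2APP;Trem2wt mice (median 46.0) and at 31.9 to 47.7 nRPKM in PS2APP;Trem2ko mice (median 41.7). These ranges overlapped over most of their length, with a log2 fold change of -0.13 (SE 0.13). Siglec1, also called CD169, is a receptor of border macrophages that type I interferon raises, and it was low here, at 0.454 to 1.28 nRPKM in PS2APP;Trem2wt (median 0.722) and 0.243 to 1.17 nRPKM in PS2APP;Trem2ko mice (median 0.517). Its log2 fold change was -0.57 (SE 0.34) on 124 to 947 reads per mouse. Of the 8 border macrophage markers, 6 had a positive log2 fold change and none passed the threshold.

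Of the other genes of sialic acid biology, 2 passed the threshold. The list held 48 genes, of which 43 were tested. At an adjusted p no greater than 0.05 in edgeR, 2 of the 43 were lower (4.65%, against 1.53% of all genes) and 0 higher (against 0.503%). At an unadjusted p no greater than 0.05, 6 were lower (14.0%, against 7.56%) and 2 higher (4.65%, against 7.29%). DESeq2 and voom+limma each called 3 lower (6.98%, against 3.08% and 1.90% of all genes) and 0 higher. The median log2 fold change of the 43 genes was -0.02. This list too was chosen with earlier results of these data known, so nothing is read from these shares. One of the genes called was Tyrobp, which encodes DAP12. It was at 1827 ± 231 nRPKM (SD, n = 7) in PS2APP;Trem2wt and at 1312 ± 191 nRPKM (SD, n = 6) in PS2APP;Trem2ko mice, or -0.48 on the log2 scale (SE 0.10, adjusted p = 0.0202 in edgeR). The call was lost without PS2APP;Trem2ko mouse 4 or 6 (log2 fold changes -0.44 and -0.46) and in females only (-0.46). The other was Glg1, a Golgi glycoprotein that carries polysialic acid in microglia, at 25.2 ± 3.45 nRPKM (SD, n = 7) against 18.8 ± 1.80 nRPKM (SD, n = 6), or -0.43 on the log2 scale (SE 0.10, adjusted p = 0.0323 in edgeR). Glg1 passed the threshold in 4 of the 13 fits that left out a mouse, those without PS2APP;Trem2ko mouse 2 or 5 or PS2APP;Trem2wt mouse 1 or 7, and its log2 fold change was between -0.49 and -0.38 in all 13. It did not pass in females only (-0.45). Cadm1, another listed carrier, was at -0.31 (SE 0.08, adjusted p = 0.0506 in edgeR) and passed in 6 of the 9 alternatives.

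Within the lists, the most abundant sialyltransferase was St3gal5, which makes the ganglioside GM3, at 81.0 ± 8.24 nRPKM (SD, n = 7) in PS2APP;Trem2wt and at 92.2 ± 4.13 nRPKM (SD, n = 6) in PS2APP;Trem2ko mice. Its log2 fold change was 0.19 (SE 0.07), and those of St6galnac4 and St3gal2 were -0.08 and -0.19. None of the 13 other sialyltransferases tested passed the threshold. The same held for 3 other Siglecs, Cd22, Mag and Siglecg, whose log2 fold changes were 0.11, 0.09 and 0.50. Genes that make, activate and move sialic acid had log2 fold changes near 0: Cmas, which activates it, was at 0.00 (SE 0.08), the Golgi transporter Slc35a1 at 0.04 (SE 0.08) and the lysosomal exporter Slc17a5 at 0.06 (SE 0.07). In the list for removal and modification of sialic acid, the log2 fold change was -0.12 for Ctsa, 0.09 for Npl and 0.04 for the lysosomal sialidase Neu1. The Siglec phosphatases Ptpn6 and Inpp5d were at -0.01 and 0.01. Of the paired receptors, Pilra was at -0.23 (SE 0.14), and Pilrb1 and Pilrb2 had means of at most 0.261 nRPKM. The remaining polysialic acid carrier named by level, Nrp2, was at -0.27 (SE 0.13).

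**Figure D3:**
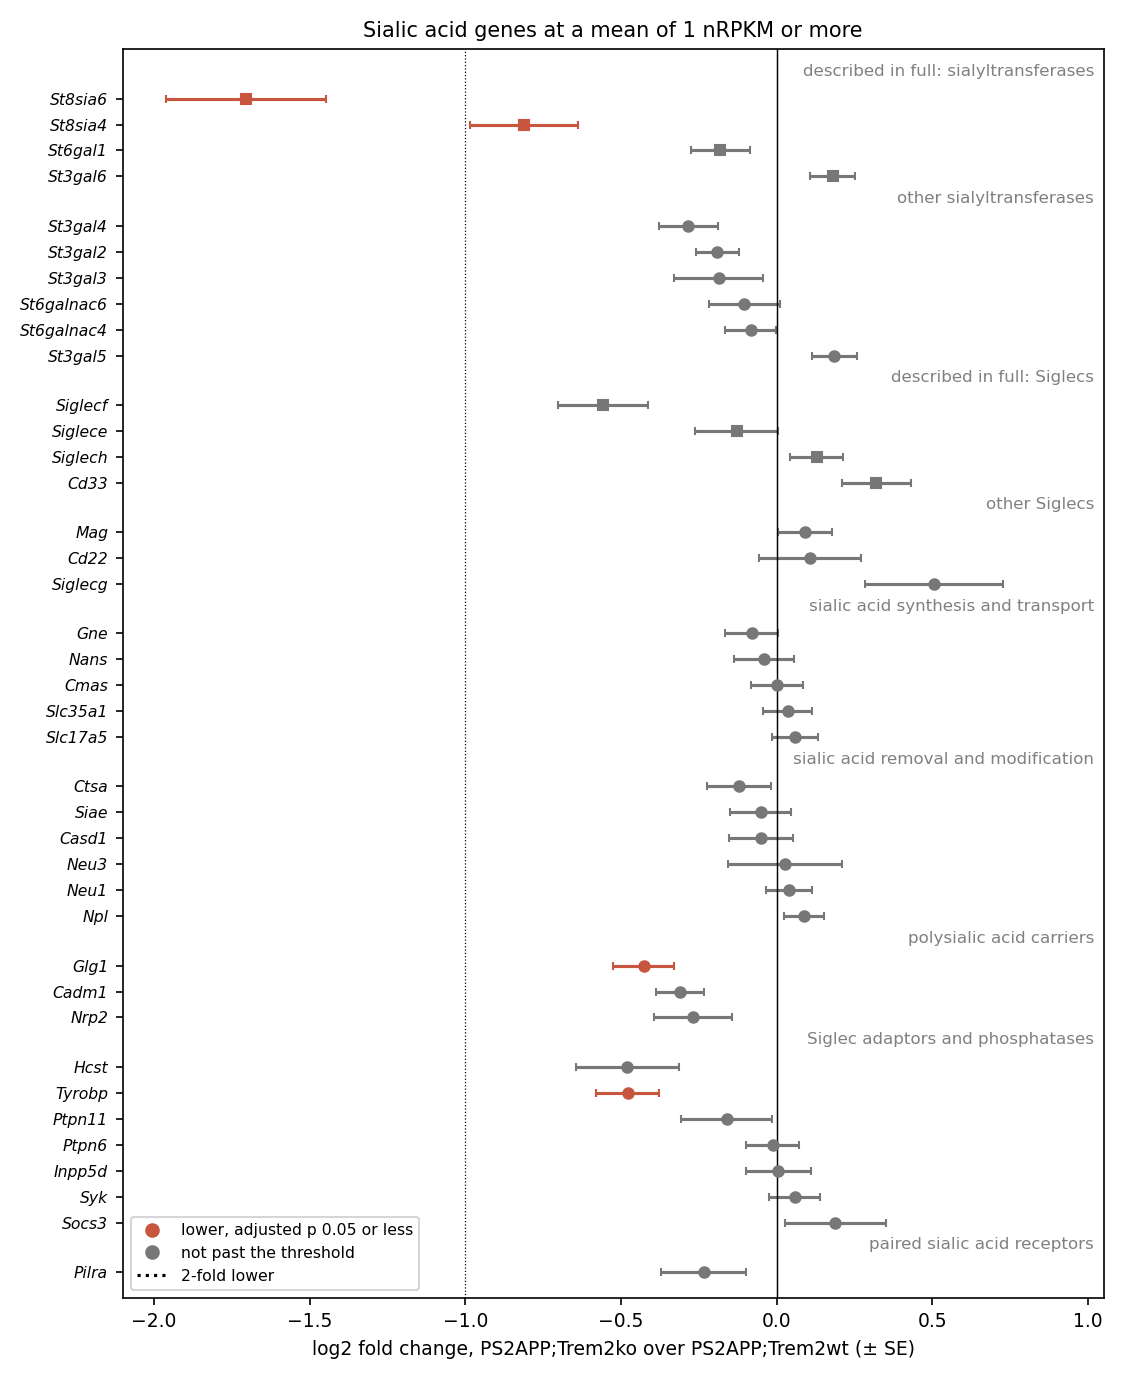
Log2 fold change of PS2APP;Trem2ko over PS2APP;Trem2wt, with its SE, for the sialic acid genes that were tested and had a mean of at least 1 nRPKM, grouped by list. Squares are genes described in full, circles the other genes, and red marks a gene lower at an adjusted p no greater than 0.05 in edgeR. St8sia6 at -1.70 is the gene farthest from 0, and beyond the dotted line at a 2-fold decrease there is no other.

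Sex was not used to choose the genes. With genotype in the edgeR model, 0 of the 10 genes differed between the 10 females and 3 males at an adjusted p no greater than 0.05, against 0.0234% of all genes tested, and voom+limma also called 0. Cd33 was the 1 gene with an unadjusted p no greater than 0.05 in either, where 1187 of the 17086 genes tested met that limit in edgeR. The male-over-female log2 fold change of Cd33 was 0.28 (SE 0.11, adjusted p = 0.713 in edgeR). For the difference of the genotype effect between the sexes, the smallest adjusted p among the 10 genes was 0.642 in edgeR, and with 1 PS2APP;Trem2ko male this test has little power. St8sia6 was 15.3 and 10.7 nRPKM in the PS2APP;Trem2wt males and 3.05 nRPKM in the PS2APP;Trem2ko male, within the range of the females of each genotype or next to it.

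Beyond the genotype means, the genes varied together in different ways from mouse to mouse. The following correlations are over 13 mice, on log2 CPM centred within genotype. Every pair of values shares a library and its depth, and the correlation of these genes with log2 total counts was between -0.23 and 0.23. St8sia6 and St8sia4 had r = 0.69 (rho = 0.83), so that mice high for one of the St8sia genes tended to be high for the other, and r = 0.70 over the 10 females alone. St6gal1 and Cd33 had r = 0.84, and St8sia1 and Siglece had r = -0.80. Siglech and Siglece ran in opposite directions, with r = -0.66, as did Siglece and Siglecf, with r = -0.65.

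Among the genes whose pattern was most like St8sia6 were Tgfbi (r = 0.89), Nup62 (0.86), Smc1b (0.83) and Il1r1 (0.82). None of these passed the genotype threshold. Here and below, the genes were picked for the highest r over all genes tested. The size of r is therefore not read as a result. Without the 2 mice farthest from the median of St8sia6, r was 0.81, 0.74, 0.78 and 0.90 in the same order. Nearest to St8sia4 were Nrip2 (0.83), Abcb1b (0.81), Dock9 (0.80), Kcnc2 (0.80) and E130116L18Rik (0.78). Without the 2 mice farthest from the median of St8sia4, these were 0.80, 0.74, 0.57, 0.66 and 0.79. Siglece was closest to B3galt5 (0.94) and the iron exporter Slc40a1 (0.93), Siglecf to Scpep1 (0.92), Siglech to Tmem71 (0.88) and Siglec1 to D16Ertd472e (0.92). With the 2 farthest mice of each Siglec left out, these were 0.95, 0.89, 0.86, 0.86 and 0.88.

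Siglec1 and Siglecf varied with the interferon response genes across mice. With the mean of Ifit1, Ifit3, Irf7, Isg15, Oasl2, Usp18, Rsad2 and Ifi44, r was 0.76 for Siglec1 (0.68 without the 2 mice farthest from the median of the gene) and 0.72 for Siglecf (0.80 without the 2 farthest), while Cd33 had r = -0.73 (-0.60). By sex, all 8 interferon genes had a negative male-over-female log2 fold change, from -1.64 to -0.78. Of these, 7 were at an unadjusted p no greater than 0.05 in edgeR, against 1187 of the 17086 genes tested. After adjustment 0 passed (smallest adjusted p = 0.713 in edgeR). The list mean, in log2(nRPKM + 0.1), was 1.97 and 1.71 in the PS2APP;Trem2wt males, below the lowest female of that genotype at 2.17. In the PS2APP;Trem2ko male it was 2.46, above PS2APP;Trem2ko mouse 1, a female, at 2.29. Over the 10 females alone, a choice made after seeing the data, r with the list was 0.74 for Siglec1, 0.73 for Siglecf and -0.62 for Cd33. Between the genotypes the signs differed, since all 8 interferon genes had a positive log2 fold change, from 0.32 to 0.92, with none past the threshold, and Siglec1 and Siglecf had negative ones. Siglece varied with the microglia markers, with r = 0.85 (0.77), and 0.79 in females. With the 8 disease-associated microglia genes, r was 0.65 for St8sia6 (rho = 0.41, and r = 0.42 without the 2 farthest mice). It was 0.66 for Siglecf (0.20 without the 2 farthest mice) and -0.58 for Siglece (-0.81). All 8 genes of that list were lower in PS2APP;Trem2ko mice at the adjusted threshold, against 1.53% of all genes tested. The list was chosen with earlier results of these data known, so nothing is read from this count. St8sia6 had r = 0.36 with the neutrophil markers (0.08 without the 2 farthest mice) and 0.39 with the border macrophage markers (0.37). The part of these lists in the values of St8sia6 was not tested.

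**Figure D4:**
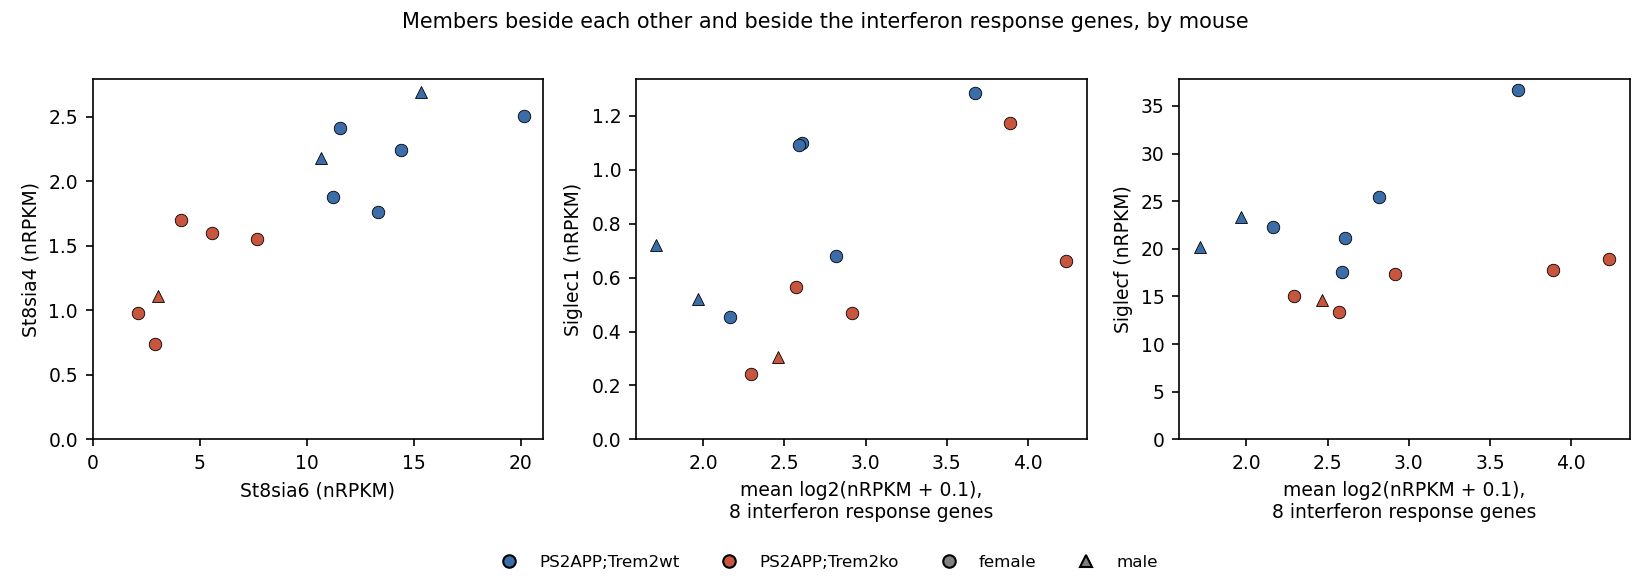
Each point is a mouse, PS2APP;Trem2wt in blue and PS2APP;Trem2ko in red, circles females and triangles males. Left, nRPKM of St8sia4 against St8sia6, where the genotypes form separate clouds. Centre and right, nRPKM of Siglec1 and Siglecf against the mean log2(nRPKM + 0.1) of 8 interferon response genes. Over the mice of both genotypes together, r is 0.76 and 0.72 after centring log2 CPM within genotype. In PS2APP;Trem2wt, mouse 3 has both the highest interferon mean (3.67) and the highest Siglecf (36.7 nRPKM). Among the other PS2APP;Trem2wt mice, Siglecf shows no clear rise with that mean.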

How the data were processed

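RNA from sorted cells of 13 mice was sequenced with SMART-seq v4 libraries as single-end 50-base reads. The authors aligned reads to GRCm38 with GSNAP and deposited counts per gene, without normalization, and nRPKM, an RPKM value scaled by a size factor. Whether counting used strand is not given in the sources used here. Symbols came from GENCODE M21 for 52403 of 52636 identifiers. Tests on the deposited counts used edgeR 4.0.16 (R 4.3.3): filterByExpr by genotype, TMM scaling, glmQLFit and glmQLFTest with no covariate, and Benjamini-Hochberg adjustment over 17086 genes. The SE was obtained as the absolute log2 fold change over the root of the test's F value. The labels tie no mouse of one genotype to a mouse of the other.

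The 10 genes and all gene lists were chosen with earlier results of these data known. Of each other sialic acid list, genes past the threshold and the 3 with the highest mean nRPKM are named, and for each of the 10 genes the most similar ones by Pearson r on log2 CPM (prior count 2). A few genes that these rules or lists hold are not reported here. Motifs were searched on both strands of the RefSeq windows. Reads shared between genes were estimated from 50-base transcript words. The comparison was repeated with other tools (voom with limma 3.58.1, DESeq2 1.42.0, and limma on nRPKM after adding 0.1 or 1 and taking log2), with RLE in place of TMM, with either no filter or 10 counts required in 6 mice, with sex in the model or males left out, with a 2-fold threshold, and without each mouse in turn. The tests were first tried on simulated counts with known changes. Python 3.11.15 with numpy 2.4.6 and pandas 2.3.3 was used for values per mouse. Counting error covers only part of the spread between mice.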

Additional observations from a re-analysis of the deposited data

Results flagged for a closer look

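In 20 groups of values (10 genes in 2 genotypes), 2 held a mouse far from the others by Dixon's criterion at the 95% level, about as many as chance gives at 1 in 20 groups. PS2APP;Trem2wt mouse 4, a female, had 58.6 nRPKM of St3gal6, and the next highest mouse of its group had 49.97 nRPKM. PS2APP;Trem2wt mouse 3, a female, had 36.7 nRPKM of Siglecf, and the next highest had 25.5 nRPKM.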

How the results depend on the processing

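St8sia6 was lower and past the threshold in each of the 9 alternatives (log2 fold change -1.78 to -1.56) and in all 13 fits that left out a mouse (-1.96 to -1.56). The count of lower genes among the 10 went from 2 to 1 in females only and with the 2-fold threshold, and lay between 1 and 3 when mice were left out, with 1 without PS2APP;Trem2ko mouse 5 or 6, where St8sia4 was lost, and 3 without PS2APP;Trem2wt mouse 6, where Siglecf was gained. DESeq2 gave 3. The fits with mice left out hold fewer mice, and the cause of the changes was not tested. St8sia4 passed in 8 of the 9 alternatives and 11 of the 13 fits that left out a mouse. The counts of higher genes and of genes differing by sex were 0 in every alternative run. Of the other sialic acid genes, 2 passed, 0 did in females only and with the 2-fold threshold, and between 0 and 3 did when mice were left out; 0 passed without PS2APP;Trem2ko mouse 4. No result that passed the threshold reversed. By the study's methods, a mouse of each genotype was generally handled as a pair, from perfusion to sorting. No paired analysis was possible because the labels give no numbers that pair mice, so no fit accounts for these pairs. The low counts of St8sia1 and Siglec1 limit what can be said of them.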

Other observations

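Mag, which encodes a Siglec of myelinating cells, was measured at 5.88 to 7.30 nRPKM in PS2APP;Trem2wt and 6.35 to 8.41 nRPKM in PS2APP;Trem2ko mice. In the same mice the oligodendrocyte marker Mog was at most 0.503 nRPKM, while Mbp was between 11.6 and 26.1 nRPKM.

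Cd22, a Siglec known from B cells, was at 8.08 to 19.0 nRPKM in PS2APP;Trem2wt and 10.01 to 15.2 nRPKM in PS2APP;Trem2ko mice. The B cell markers Pax5 and Ms4a1 were at most 0.0181 nRPKM in any mouse, and Cd79a at most 0.134 nRPKM, while Cd79b was between 15.5 and 23.3 nRPKM. These genes were named after their values were seen.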
